A study of Homo sapiens with 6 samples.

Results

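The catecholamine genes described here were 9 genes chosen by their place in the pathway: GCH1, TH, DDC and DBH for synthesis, SLC18A1 and SLC18A2 for storage, SLC6A2 for reuptake, and MAOA and MAOB for breakdown. They were found by symbol, 1 row each, among the 60709 genes that had values in the table of gene counts. The cells were SH-SY5Y, an established human neuroblastoma line with noradrenergic features, grown in 6-well plates. The study set wells given DMSO alone against wells given a fumarate joined to an NRF2 peptide, with 3 samples labelled for each group. All wells received 10 uL of DMSO and were lysed after 5 h. In the peptide wells 200 uL of a solution of 2 mg peptide in 600 uL of water was added as well, and the labels mention no such addition of water for the controls. The labels do not say whether wells of a group were separate cultures, so SDs below may hold technical spread alone.

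The table's columns were matched to samples by the numbers in their headings. Headings 4, 5 and 6 are the numbers of control replicates 1, 2 and 3. The peptide samples are numbered 13, 14 and 15 in the labels, and no heading carries these numbers. The peptide-treated samples are therefore not analysed here, and the values below are levels in the 3 control libraries with no comparison of treatments. If the headings had been renumbered at deposit, the same columns could hold treated wells, a point on which labels and headings are silent. The libraries are bulk RNA, in which fewer cells of a type and less RNA per cell cannot be told apart.

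Catecholamines are made from tyrosine. Tyrosine hydroxylase (TH) turns tyrosine into DOPA and is the rate-limiting step, using tetrahydrobiopterin, a cofactor whose synthesis starts with GTP cyclohydrolase (GCH1). DOPA decarboxylase (DDC) makes dopamine from DOPA, and dopamine beta-hydroxylase (DBH) makes noradrenaline from dopamine inside secretory vesicles. Vesicular monoamine transporters (SLC18A1 and SLC18A2, also called VMAT1 and VMAT2) load the vesicles. The noradrenaline transporter (SLC6A2) returns released noradrenaline to the cell, and the monoamine oxidases MAOA and MAOB break monoamines down at the mitochondrial outer membrane. Sympathetic neurons and the neuroblastomas that arise from their lineage are known for genes of this pathway, not necessarily for every gene listed here.

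DBH and SLC6A2 were the most abundant of the 9 genes, TH had no counts in any library, and the vesicular transporter present was SLC18A1 and not SLC18A2 beyond a few counts. Of the 9 genes, 7 had at least 10 counts in every library. The same minimum was met by 22.9% of all genes in the table. The exceptions were TH and SLC18A2. Together the 9 genes held 0.153 ± 0.0123% of the counts (SD, n = 3), and DBH with SLC6A2 made up 84.3 ± 1.78% of that sum.

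**Figure D1:**
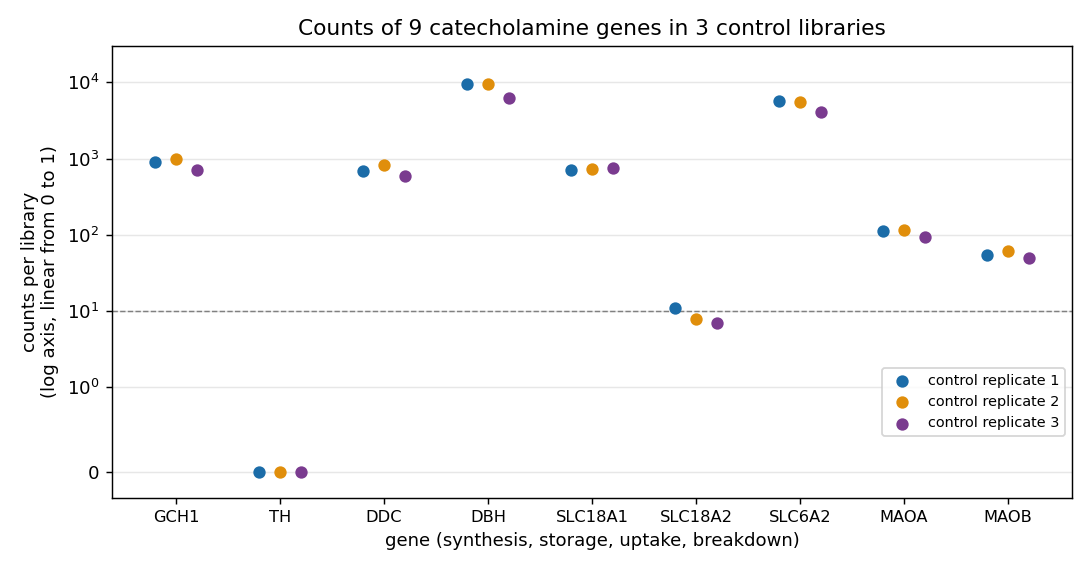
Counts of the 9 genes in each control library, 1 point per library, on a log axis that is linear from 0 to 1. The dashed line marks 10 counts. TH lies at 0 in all 3 libraries, SLC18A2 lies between 7 and 11 counts, and DBH lies between 6200 and 9384.

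TH (ENSG00000180176.15, chr11:2163929-2171877 on the minus strand, GENCODE 29 on GRCh38) had 0 counts in control replicate 1, 0 in replicate 2 and 0 in replicate 3. A 0 was taken to allow up to 3 counts, and 3 counts correspond to 0.263 to 0.339 CPM depending on the library. The exact 95% Poisson interval of a 0, which has 2 sides, reaches 3.69 counts. CPM are counts per 1000000 of the library total after scaling, and the limit covers counting error only. In GENCODE 29 no exon of another gene overlaps the exons of TH, and none of the 1861 distinct 50-base words of its longest transcript occurs in a transcript of another gene. The annotation release that the authors counted on is not given in the sources used here. It was not GENCODE 29, which holds 58463 of the 60709 genes with values. The check of overlaps therefore does not cover the gene set that was counted.

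DDC (ENSG00000132437.18, chr7:50458436-50565457, minus strand) had 681, 812 and 585 counts in replicates 1, 2 and 3, which is 63.7, 71.1 and 66.1 CPM. The mean was 66.9 ± 3.77 CPM (SD, n = 3), with replicate 2 highest and replicate 1 lowest. Its coefficient of variation (CV, the SD over the mean) was 5.63%, against a counting error of 3.80%. An antisense gene, DDC-AS1, overlaps 3.64% of the exonic bases of DDC from the opposite strand and had 1 count in each library.

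DBH (ENSG00000123454.12, chr9:133635348-133659344, plus strand) had 9374, 9384 and 6200 counts. These are 877, 821 and 700 CPM, a mean of 799 ± 90.2 CPM, with replicate 3 lowest. Counting error was 1.10% and the CV 11.3%, so the spread of DBH between libraries was larger than counting alone gives. DBH-AS1, on the opposite strand, overlaps 3.13% of its exonic bases and had 84, 76 and 60 counts.

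Shares of counts and summed CPM of gene lists are not scaled by length. Levels of single genes were compared only per kilobase of transcript, taking the longest GENCODE 29 transcript of each gene. On this scale DBH was at 212 ± 23.9 CPM per kilobase and DDC at 32.8 ± 1.84. DBH was above DDC in every library, by 7.44, 6.25 and 5.73 times. With 3 counts set for TH in each library, DBH was 1046-fold or more above TH and DDC 182-fold or more, these being the lowest bounds of the 3 libraries. Set at 3.69 counts, the upper end of the exact 95% Poisson interval of a 0, TH would give lower bounds. With the length of the coding sequence or of all exons the lowest bound for DBH was higher, 1769-fold and 1775-fold.

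GCH1 (ENSG00000131979.20, chr14:54842008-54902852, minus strand) had 895, 996 and 699 counts. The corresponding levels were 83.7, 87.2 and 78.9 CPM, a mean of 83.3 ± 4.13 CPM. GCH1 makes the first intermediate of tetrahydrobiopterin, which other hydroxylases of aromatic amino acids and the nitric oxide synthases also use. Per kilobase it stood at 28.3 ± 1.40 CPM, against 32.8 for DDC. With coding length GCH1 stood at 111 and DDC at 46.5 CPM per kilobase, so how their levels compare depends on the length used.

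SLC18A1 (ENSG00000036565.15, chr8:20144855-20183206, minus strand) had 705, 738 and 746 counts. These correspond to 65.9, 64.6 and 84.2 CPM, a mean of 71.6 ± 11.0 CPM. Replicates 1 and 2 were nearly level and replicate 3 was above both. Its CV of 15.3% was the highest among the 7 genes that met the minimum of 10 counts, against a counting error of 3.70%.

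SLC18A2 (ENSG00000165646.14, chr10:117241073-117279430, plus strand) had 11, 8 and 7 counts, a mean of 0.840 ± 0.170 CPM. The exact 95% Poisson intervals of these counts run from 5.49 to 19.7, from 3.45 to 15.8 and from 2.81 to 14.4, so the 3 libraries do not differ beyond counting error. Per kilobase SLC18A1 was above SLC18A2 by 89.4, 129 and 149 times in replicates 1, 2 and 3. Counting error on each of these ratios is 30.4 to 38.0%, nearly all of it from SLC18A2.

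Overlap with other genes limits the value for SLC18A2. Of its exonic bases in GENCODE 29, 56.1% lie opposite exons of PDZD8, AL731557.1 and AL391988.1, of which PDZD8 had 643, 801 and 623 counts. The library kit marks strand, but whether the counting used it is not stated, and whether reads in that stretch were lost was not tested. When each gene was scaled by the exonic bases it shares with no other gene, a choice made after the counts were seen, SLC18A1 was still above SLC18A2 by 29.8, 42.9 and 49.6 times.

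The stretch just before the RefSeq start site is shown for SLC18A2, the transporter with few counts, and for DBH, the most abundant of the 9 genes. Both are on GRCh38.p14, on the plus strand, 250 bases long, and end at the base before the start site. Capitals mark the cAMP response element TGACGTCA, a palindrome bound by the CREB family.
SLC18A2, chr10:117240864-117241113: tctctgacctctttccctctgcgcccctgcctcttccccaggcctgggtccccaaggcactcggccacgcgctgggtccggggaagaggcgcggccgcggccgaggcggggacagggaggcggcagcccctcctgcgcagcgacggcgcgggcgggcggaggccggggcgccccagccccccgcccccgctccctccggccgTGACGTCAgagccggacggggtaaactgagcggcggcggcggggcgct
DBH, chr9:133636113-133636362: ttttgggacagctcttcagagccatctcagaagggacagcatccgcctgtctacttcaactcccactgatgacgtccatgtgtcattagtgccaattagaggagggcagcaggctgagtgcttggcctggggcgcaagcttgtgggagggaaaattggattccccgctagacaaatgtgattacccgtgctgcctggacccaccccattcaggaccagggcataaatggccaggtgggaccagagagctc

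The motifs TGACGTCA, TGACNNNGC and TAATTA were searched on both strands from 250 bases before to 50 after the start sites of DDC, DBH, SLC18A2, MAOA and MAOB, which are the 5 genes whose RefSeq promoters were used. Promoters of the other 4 genes, SLC18A1 among them, were not searched. Among these 5, TGACGTCA was found only in SLC18A2, starting 48 bases before the start site, and it occurs in 1.84% of the 34796 promoters of that length. TGACNNNGC, the core of the antioxidant response element to which NRF2 binds with a small MAF protein, was likewise found among these 5 only in SLC18A2, 33 bases after the start site. It occurs in 13.3% of all promoters. The homeodomain string TAATTA, which occurs in 4.86%, was in none of the 5. The shorter homeodomain core TAAT was not searched, and the printed DBH stretch holds its reverse complement, atta, unmarked. The printed stretch has a GC content of 78.8% for SLC18A2 and 55.6% for DBH. A match is a string of letters and does not show that a factor binds. Only exact strings were searched, so a lack of a match does not show that a site is absent. The printed DBH stretch holds tgacgtcc, which differs from TGACGTCA only in its last base and was not marked.

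SLC6A2 (ENSG00000103546.18, chr16:55655604-55706192, plus strand) had 5679, 5593 and 4036 counts, which is 531, 489 and 456 CPM. The mean was 492 ± 37.7 CPM, with replicate 3 lowest. Per kilobase it stood at 139 ± 10.6 CPM, and DBH was above it in every library, by 1.55, 1.58 and 1.45 times. With all exons of each gene merged into its length, these ratios were 2.39, 2.43 and 2.22. Of the related transporters, SLC6A3, which takes up dopamine, had 0 counts in every library, and SLC6A4, which takes up serotonin, had 0, 1 and 4. A gene on the same strand, AC136621.1, covers 17.9% of the exonic bases of SLC6A2 and had 1301, 1302 and 1104 counts. The longest transcript of SLC6A2 shares no 50-base word with it, and how the counting treated the shared stretch was not tested.

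MAOA (ENSG00000189221.10, chrX:43654907-43746824, plus strand) had 112, 116 and 94 counts, which is 10.5, 10.2 and 10.6 CPM, a mean of 10.4 ± 0.238 CPM. MAOA prefers noradrenaline and serotonin as substrates. MAOB (ENSG00000069535.14, chrX:43766611-43882447, minus strand), the form that prefers phenylethylamine, had 55, 61 and 50 counts, which is 5.14, 5.34 and 5.65 CPM, a mean of 5.38 ± 0.254 CPM. The CVs of 2.28% and 4.72% were below the counting errors of 9.65% and 13.4%, so no spread between libraries beyond counting was detectable for either gene at this depth.

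The paralogs MAOA and MAOB are neighbours on the X chromosome and share no 50-base word between their longest transcripts, so a read of that length that matches exactly belongs to 1 of them. Their order depended on the length used. With the longest transcript the ratio of MAOA to MAOB per kilobase was 0.961, 0.897 and 0.887, with all exons merged it was 1.06, 0.995 and 0.983, and with the coding sequence it was 2.01, 1.88 and 1.86. Counting error on the ratio was 15.8 to 17.5% per library. No order of the oxidases held across these lengths.

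Ordered by level per kilobase, the genes ran DBH, SLC6A2, DDC, GCH1, SLC18A1, MAOB, MAOA, SLC18A2 and TH. Among 13868 genes of known length that met the minimum of 10 counts, 98.7% had a lower mean than DBH and 97.8% a lower mean than SLC6A2. The shares were 85.7% for DDC, 83.0% for GCH1 and 79.6% for SLC18A1. They were 19.6% for MAOB and 18.3% for MAOA, and the median of those genes was 8.37 CPM per kilobase. The ranges of GCH1 and SLC18A1 overlapped, 26.8 to 29.6 against 21.8 to 28.5 CPM per kilobase. DDC, with 31.2 as its lowest library, was just above GCH1, but GCH1 was above DDC with merged exons or coding length. DBH was above SLC6A2, SLC6A2 above DDC, and SLC18A1 above the oxidases in every library and with every length tried.

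**Figure D2:**
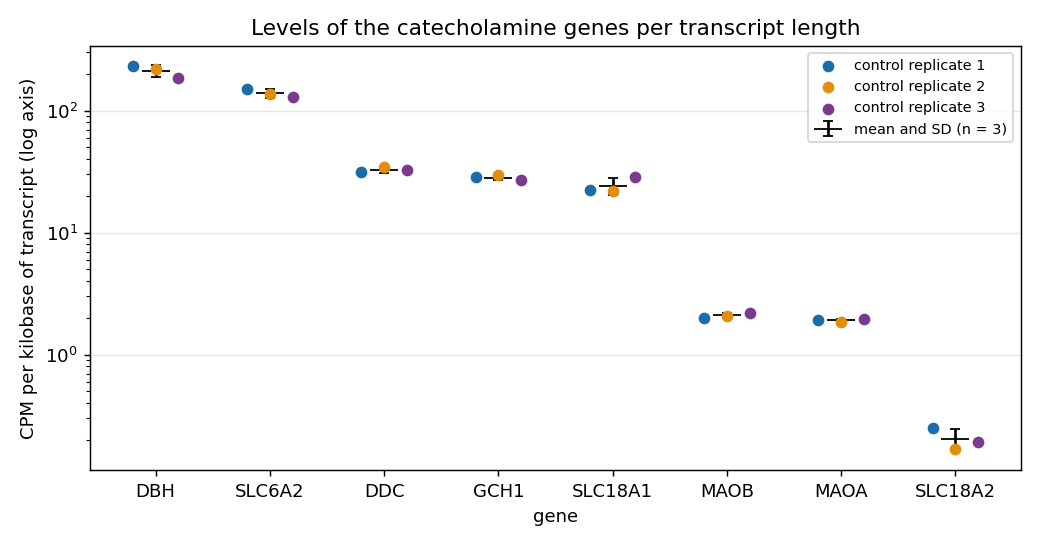
Level per kilobase of the longest transcript (CPM per kilobase, log axis) of the 8 genes with counts, 1 point per library, with the mean and SD of 3 libraries as bars. DBH at 212 and SLC6A2 at 139 lie apart from DDC, GCH1 and SLC18A1 at 24.2 to 32.8, and these lie above MAOB, MAOA and SLC18A2.

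Replicate 3 stood apart from the other libraries. It had the smallest total, 8887854 counts against 10683037 and 11397407, and the largest share of mitochondrially encoded RNA, and its difference from the others followed transcript GC content. Over 10290 nuclear genes in 10 bins, the median of replicate 3 minus the mean of replicates 1 and 2, on the log2(CPM + 1) scale, went from 0.24 in the bin of lowest GC to -0.22 in the bin of highest GC.

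The catecholamine genes followed this trend in part. Replicate 3 was lower for 4 of the 7 and higher for 3, with a median of -0.03, against -0.01 over all genes that met the minimum. DBH, at 60.7% GC, was lower in replicate 3 by -0.28 and SLC6A2, at 53.9% GC, by -0.16. With the GC trend removed these differences were -0.08 and -0.05, and the SD of DBH went from 90.2 to 28.0 CPM. GCH1, at 43.2% GC, moved the other way, from -0.11 to -0.19. DDC, MAOA and MAOB differed by -0.03, 0.04 and 0.09.

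SLC18A1 did not follow the GC trend. At 50.1% GC, where the trend is -0.04, its replicate 3 was higher by 0.36, and by 0.40 with the trend removed. Of the 10290 nuclear genes, 86 had as high a value after removal, counting SLC18A1 itself. Without replicate 3 its level per kilobase was 22.1 CPM, against 24.2 with it. None of the 7 genes had a highest library at least 1.5 times its lowest, and 9.74% of all genes that met the minimum of 10 counts did. What sets SLC18A1 apart in this library was not tested.

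**Figure D3:**
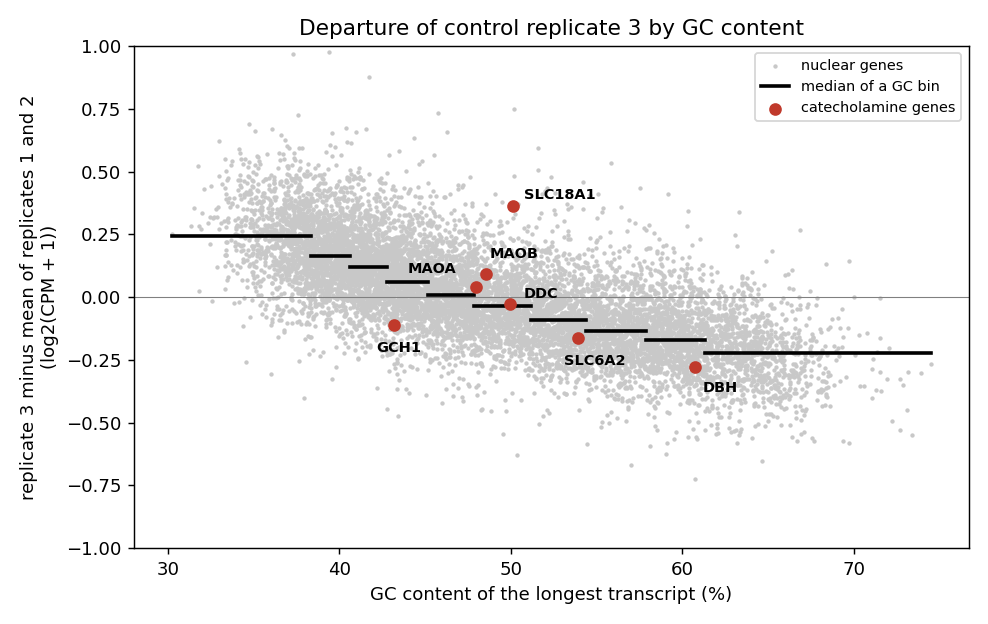
Replicate 3 minus the mean of replicates 1 and 2 on the log2(CPM + 1) scale, by GC content (%) of the longest transcript, for 10290 nuclear genes (grey, 2 beyond the axis) with the median of 10 GC bins (black) and the 7 catecholamine genes with at least 10 counts (red). DBH and SLC6A2 lie near the trend and SLC18A1 lies above it, at 0.36.

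Tetrahydrobiopterin synthesis and recycling was present nearly whole. Of its 7 genes, GCH1 included, 6 had at least 10 counts in every library, against 22.9% of all genes. PCBD1, which recycles the cofactor and also acts as a partner of HNF1 factors, was highest with 53.1 ± 4.47 CPM per kilobase. The exception was GCHFR, the feedback regulator of GCH1, with 5, 3 and 2 counts, but 75.2% of its exonic bases lie opposite DNAJC17.

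Several other breakdown enzymes were counted at higher levels per kilobase than the monoamine oxidases, and a pair of them were at or near 0. AKR1B1, an aldo-keto reductase that reduces aldehydes, stood at 170 ± 9.37 CPM per kilobase and AKR1A1, of the same family, at 37.4 ± 2.05. ALDH2, a mitochondrial aldehyde dehydrogenase, stood at 6.06 ± 0.349. For comparison, MAOA stood at 1.91 ± 0.0437 and MAOB at 2.10 ± 0.0989. ALDH1A1, a cytosolic aldehyde dehydrogenase of dopamine neurons, had 0 counts in every library. SULT1A3, a sulfotransferase for dopamine, had 2, 4 and 1 counts, which are uncertain because 98.6% of its 50-base words occur in other genes, near-identical copies included. Of the 6 genes listed, 4 met the minimum of 10 counts, against 22.9% of all genes.

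Of 8 listed genes that serve the vesicle, 7 had 10 or more counts in every library, against 22.9% of all genes. CYB561, which passes electrons from ascorbate into the vesicle for DBH, was the highest with 173 ± 9.60 CPM per kilobase. ATP6V1B2, a subunit of the proton pump that drives amine uptake into vesicles, followed with 37.4 ± 0.855. ATP6V0C, the proteolipid of the same pump, had 1, 2 and 2 counts. In GENCODE 29 the genes AC093525.1 and AC093525.2 share 72.1% of its exonic bases on the same strand and had 0 counts in every library. How the counting treated that stretch was not tested.

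Of 8 genes of adrenaline and other monoamine routes, 2 met the minimum of 10 counts in every library, PNMT and SLC29A4, against 22.9% of all genes. PNMT, which makes adrenaline from noradrenaline, had 28, 17 and 24 counts, or 2.27 ± 0.681 CPM. TPH1 and TPH2, the tryptophan hydroxylases of serotonin synthesis, had at most 6 counts in any library, and HDC, which makes histamine, had 0. SLC29A4, a low-affinity monoamine transporter of the plasma membrane, was the highest of this list of 8 with 12.1 ± 1.29 CPM per kilobase. Of 4 cholinergic genes 3 met the minimum, against the same 22.9%. CHAT had 13, 12 and 12 counts. Its neighbour SLC18A3, the vesicular acetylcholine transporter, had 210, 257 and 145, and ACHE, which breaks acetylcholine down, had 505, 509 and 357.

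Of 14 adrenergic and dopamine receptor genes, 3 had at least 10 counts in every library: ADRA2C, DRD2 and DRD4. This share is near the 22.9% of all genes that met the minimum. ADRA2C and DRD2, inhibitory receptors that also act as autoreceptors on catecholamine neurons, stood at 10.7 ± 1.39 and 3.30 ± 0.313 CPM per kilobase. ADRA1B, ADRB1, ADRB3, DRD1, DRD3 and DRD5 had 0 counts in every library.

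**Figure D4:**
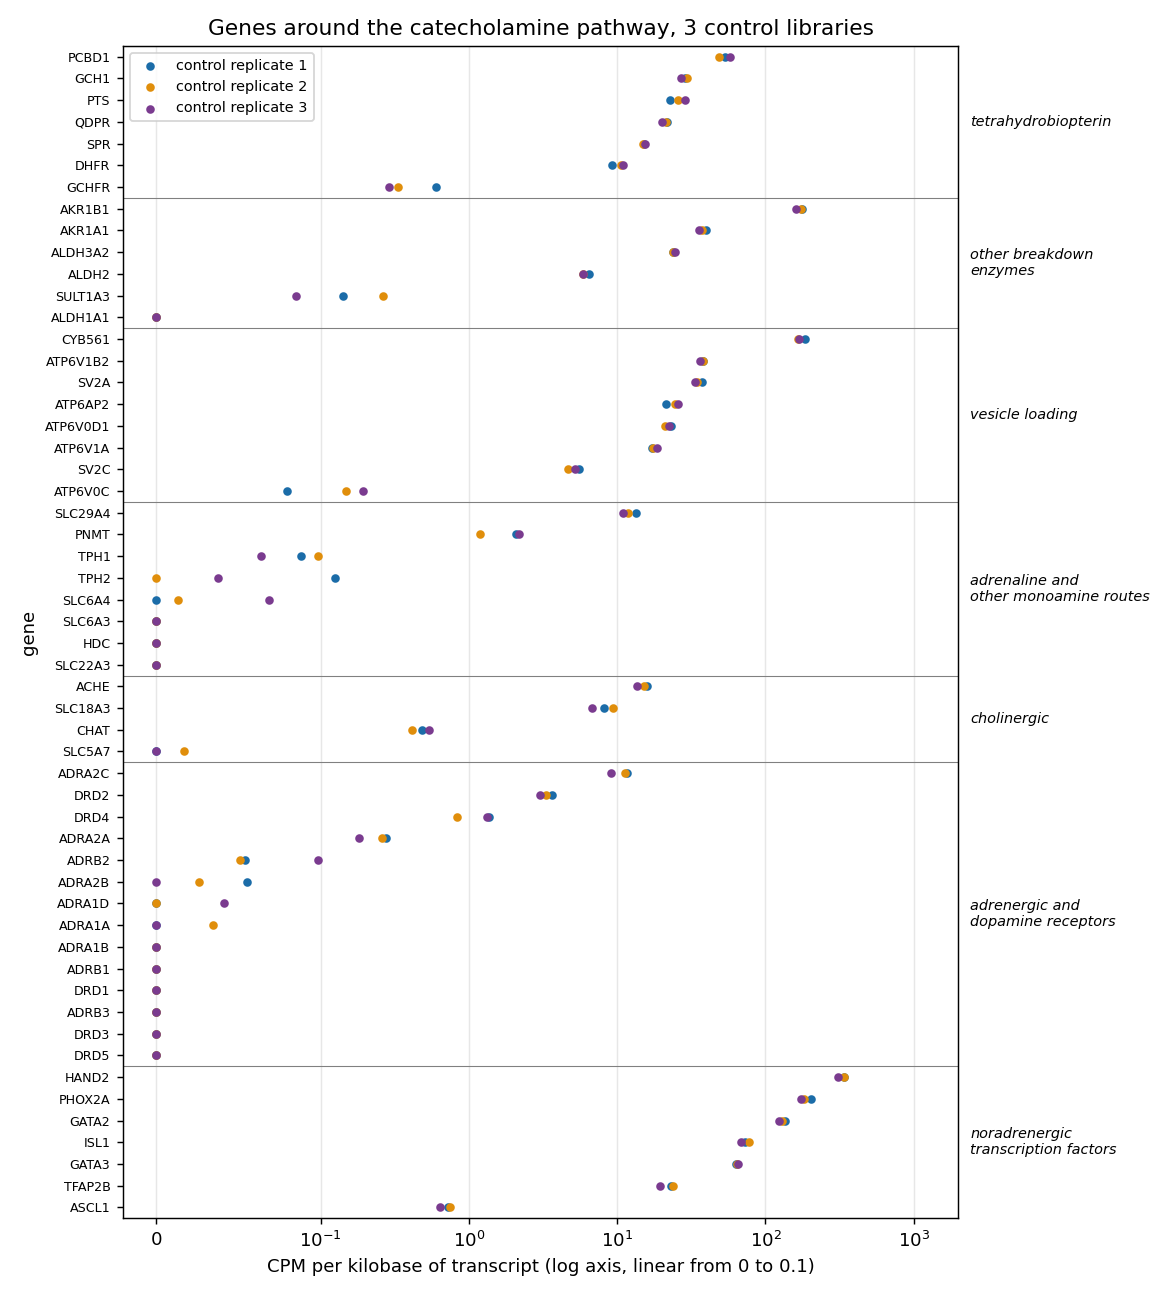
Level per kilobase (CPM per kilobase, log axis that is linear from 0 to 0.1) of 7 lists of genes around the pathway, 1 point per control library, sorted by mean within each list. Cofactor, vesicle and transcription factor genes lie mostly above 10, and most receptors lie at or near 0.

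The labelled cell type was checked against its markers. All 7 noradrenergic transcription factors listed had at least 10 counts in every library, with a summed level of 2058 to 2262 CPM. The same minimum was met by 22.9% of all genes. HAND2 stood at 329 ± 15.9 CPM per kilobase, PHOX2A at 186 ± 15.8 and GATA3 at 64.5 ± 1.08. HAND2, GATA3 and PHOX2A are known regulators of TH and DBH in sympathetic neurons, and TH had 0 counts in these same libraries. Of 7 mesenchymal markers, 5 had at least 10 counts, with a summed level of 217 to 252 CPM, of which FN1 held 184 ± 14.6, and PRRX1 was at 0. Schwann and melanocyte markers summed to 9.01 to 11.97 CPM over 5 genes, 3 of them with at least 10 counts, and SOX10 was at 0. Epithelial and immune markers summed to 1.12 to 1.47 CPM over 3 genes, with CDH1 at 0 and only EPCAM at 10 counts or more.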

How the data were processed

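The values are raw read counts for each Ensembl gene identifier, deposited without normalization, per the file headers. The submitters' processing notes name fastp 0.21.1, STAR 2.7.7a, featureCounts and the build GRCh38; settings and annotation release are not given in the sources used here. Libraries were made with a stranded mRNA kit, per the labels' protocols. Columns headed 4, 5 and 6 were used; 3 further columns carry the number of no labelled sample and were not used. The planned edgeR test of peptide against control was not run. Of the table's lines, 2 name no gene and 1 gene has no value in these columns.

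Counts were scaled to CPM with TMM factors (edgeR 4.0.16, R 4.3.3). Symbols matched 60436 identifiers, and GENCODE 29 held 58463 of the 60709 genes with values, so the counting used another gene set. Positions, lengths and GC content are those of GENCODE 29 on GRCh38, and promoters those of RefSeq on GRCh38.p14. The GC trend was the median deviation in 50 GC bins per library, over nuclear genes that averaged 100 counts or more and reached 10 in each library. On simulated data for 10290 genes of 3 control libraries, a slope of -0.02 (log2 per percent GC) was estimated as -0.0193, and 0.000108 was left after removal. No pair of libraries matched within sampling noise (chi-square per degree of freedom 2.21 to 10.2), so none was treated as 1 library deposited more than once. This does not show that the wells were separate cultures. Python 3.11.15 with pandas 2.3.3, numpy 2.4.6, scipy 1.17.1 and matplotlib 3.10.9 made the tables and figures.

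All 9 genes were named whatever their values. Of each other list, the 2 genes highest per kilobase and those under 10 counts in all libraries could be named, with ALDH2, PNMT, SLC6A3, SLC6A4, CHAT, HAND2, GATA3 and the antisense genes. DRD4 and the genes that overlap others were named after their values were seen. A pair of genes was left out of these lists and is not reported here. Members and lists were chosen with earlier results of these data known.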

Additional observations from a re-analysis of the deposited data

How the results depend on the processing

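No paired analysis was possible because only control columns were matched, so replicate numbers had no partners; the treatment fits (edgeR with a replicate block, DESeq2) were not run. Of the 9 genes, 7 met the minimum of 10 counts, 8 met minimums of 1 and 5, 7 met 50, and 7 met 10 without any 1 replicate. RLE factors and library size alone moved no level of a single gene by more than 1 SD. Removal of the GC trend and leaving out each replicate did not either, but these settings could hardly show a move. Dropping 1 of 3 libraries cannot shift a mean by 1 SD. The GC trend was fitted on deviations from each gene's own mean, so its removal leaves that mean nearly in place. Leaving mitochondrial genes out shrinks the library totals and so raised every level above 0, 3 of them by more than 1 SD. Gene length mattered most. The median level of the 9 genes, 23.7 CPM per kilobase, was 18.1 with merged exons, 42.9 with coding length and 18.3 with exon bases of that gene alone (this last length was added after seeing the data), and 22.1 to 24.6 without 1 replicate. In the same order of lengths, the ratio of MAOA to MAOB, 0.915, was 1.01, 1.91 and 1.01, that of SLC18A2 to SLC18A1, 0.00856, was 0.0113, 0.0122 and 0.0257, and the mean bound of DBH over TH, 1403, was 2382, 2373 and 2459. The mean bound of DDC over TH, 216, was 254 with coding length. Without 1 replicate these 4 ratios ranged from 0.892 to 0.929, 0.00725 to 0.00947, 1313 to 1582 and 197 to 233. The median deviation of replicate 3, -0.03, was 0.011 with the GC trend removed, both smaller in size than 0.04, the median SD of replicates 1 and 2 over the same genes. Depth limits TH, at 0 counts, to an upper bound and leaves SLC18A2 at 7 to 11 counts.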
